A study of Mus musculus with 2 samples.

Results

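The Arp2/3 complex is a machine of several proteins, encoded in the mouse by the 9 genes described here, *Arpc4*, *Actr2*, *Actr3*, *Arpc1a*, *Arpc1b*, *Arpc2*, *Arpc3*, *Arpc5* and *Arpc5l*. They were chosen by symbol as subunits of the complex, and all 9 were found among the 32285 genes counted. Transcripts were counted from their 3′ ends in single CD45+ cells sorted from the brains of 8 mice aged 12 weeks. In all 8 mice both alleles of *Arpc4* were floxed (Arpc4 fl/fl, on a C57BL/6J background). The 4 KO mice also carried 1 copy of the transgene Tg(Cx3cr1-Cre), in which the *Cx3cr1* promoter drives Cre recombinase in microglia, in other brain macrophages and in some blood cells, and the 4 Ctrl mice were littermates without Cre. All Ctrl mice were male, and the study's methods give 3 male KO mice and 1 female one. The mice were told apart by oligonucleotide tags put on their cells, and all were run as 1 pool on 1 library.

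The complex starts new actin filaments as branches on the sides of old ones. *Actr2* and *Actr3* encode the actin-related proteins ARP2 and ARP3, which form the first units of the new branch, *Arpc2* and *Arpc4* encode the core that holds the complex together, and *Arpc3*, *Arpc1a* or *Arpc1b* and *Arpc5* or *Arpc5l* add the rest. A complex holds either ARPC1A or ARPC1B and either ARPC5 or ARPC5L, so the transcripts of these pairs give a balance between alternative forms. In microglia, branched actin underlies the thin processes with which the cells scan the brain, as well as migration and phagocytosis.

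Windows of 250 bases before the first listed start were found in RefSeq (GRCm38.p6) for 8 of the 9 genes, the exception being *Arpc5l*. Those of *Arpc4*, *Actr3* and *Arpc3* are shown because the transcripts of the first fell, those of the second rose and those of the third did not pass the test in KO microglia. Capitals mark matches to the motifs named in the next paragraph.
Arpc4: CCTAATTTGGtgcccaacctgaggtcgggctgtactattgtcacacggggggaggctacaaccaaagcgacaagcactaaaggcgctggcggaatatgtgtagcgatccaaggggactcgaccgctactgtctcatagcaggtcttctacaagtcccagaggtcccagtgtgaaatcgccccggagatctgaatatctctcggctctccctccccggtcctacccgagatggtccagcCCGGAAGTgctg
Actr3: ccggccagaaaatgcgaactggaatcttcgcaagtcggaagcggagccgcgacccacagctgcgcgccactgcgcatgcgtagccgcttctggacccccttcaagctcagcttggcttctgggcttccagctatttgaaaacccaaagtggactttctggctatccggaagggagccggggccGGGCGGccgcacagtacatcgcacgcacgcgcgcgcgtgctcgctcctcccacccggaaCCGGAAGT
Arpc3: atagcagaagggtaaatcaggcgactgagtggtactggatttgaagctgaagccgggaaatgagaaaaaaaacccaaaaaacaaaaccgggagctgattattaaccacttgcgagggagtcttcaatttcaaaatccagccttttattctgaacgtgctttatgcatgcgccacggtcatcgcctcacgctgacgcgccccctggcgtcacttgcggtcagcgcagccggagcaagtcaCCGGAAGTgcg
The first lies at chr6:113377863-113378112 on the plus strand, the second at chr1:125435728-125435977 on the minus strand and the third at chr5:122391628-122391877 on the plus strand.

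The motif CCGGAAGT, bound by ETS family factors, stood in 4 of the 8 windows, those of *Arpc4*, *Actr3*, *Arpc1a* and *Arpc3*, and in 2.93% of the 27025 windows of all genes, searched on both strands. In *Arpc4* and *Arpc3* it lay at the end of the window nearest the start, and in *Actr3* it formed the last 8 bases. A CArG box, the site of serum response factor, which controls many actin genes, stood in 1 of the 8 windows, that of *Arpc4*, and in 1.40% of all. The GC box GGGCGG was in 5 of the 8 (32.9% of all) and the CCAAT box in 2 (34.5%). GAGGAAGT, the form of the ETS site preferred by PU.1, was in none of the 8 windows and in 2.44% of all. The matches in the 3 windows shown did not overlap each other. The 8 windows held CG, a C followed by a G, 14 to 37 times. Over all windows the median was 6 and the upper quartile 16. CCGGAAGT and GGGCGG contain CG, and the shares of all windows were not matched for it. Motifs here are matches of letters, not measured sites.

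The 9 genes lie on chromosomes 1, 2, 5, 6 and 11 of mm10. *Arpc4* (ENSMUSG00000079426) spans chr6:113378115-113390448 on the plus strand. *Arpc1a* (chr5:145083830-145108761) and *Arpc1b* (chr5:145114215-145130705) are neighbours on the same strand, 5453 bases apart. *Actr3* spans chr1:125392905-125435727 on the minus strand, and *Arpc5l* chr2:39005348-39015877 on the plus strand. *Arpc4* shares its last 1189 bases, all of them exonic, with *Ttll3*, a gene of the same strand that encodes a tubulin glycylase, and 283 of these bases are in exons of both. Reads in that stretch can be counted for only 1 of the genes or for none. The 3′ end of *Arpc1b* overlaps *Pdap1* on the opposite strand over 1937 bases, and the sources used here do not say whether strand was used in counting. *Arpc5l* shares 821 bases at its start with *Wdr38* on the same strand.

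Between 5251527 and 11148525 unique molecular identifiers (UMIs, 1 for each RNA molecule captured) were counted on genes per Ctrl mouse and between 10768644 and 12878691 per KO mouse. No cell barcode was shared between mice. Of 19863 cells kept, 17038 were microglia-like and 1507 stayed unnamed. Another 414 resembled CNS-associated macrophages (CAMs), 345 monocytes, 309 T cells (a cluster that also held NK cell markers) and 78 B cells. The monocyte-like cluster held the monocyte marker *Plac8* and the dendritic cell marker *Cd209a* among its leading genes. Dendritic cells were not told apart within it. All 12 microglia markers were present in the microglia-like cells, at a summed level of 26483 to 26883 CPM (counts scaled to a fixed total per sum of cells) in Ctrl mice and of 11196 to 15884 CPM in KO mice. Mouse KO1 stood apart: *Xist* was at 1383 CPM in its microglia against 3.65 to 13.2 CPM in the 7 others, and the hemoglobin gene *Hbb-bs* at 934 CPM against at most 3.30 CPM. *Xist* RNA is made by female cells, so by this measure KO1 is the 1 female KO mouse. The study left its female KO mouse out of its single-cell analysis, whereas the main values here include KO1. Results are therefore also given without KO1. Of the microglia-like clusters, 1 was led by hemoglobin genes and *Ms4a7*, with 0.487% of Ctrl and 14.0% of KO microglia. Another held the CAM marker *Mrc1* among its leading genes, with 0.539% and 2.80%. Values without these 2 clusters are given too. Over all microglia of KO2 to KO4, *Hbb-bs* was at 1.60 to 2.40 CPM, so the hemoglobin lead came mainly from KO1. In the study, *Ms4a7* was raised in a reactive microglia cluster. Whether the cluster led by hemoglobin genes holds such microglia was not tested, and leaving it out may remove them.

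The first comparison asked how transcripts of the complex differed between KO and Ctrl microglia when only *Arpc4* had been targeted. In microglia-like cells, *Arpc4* fell to 0.646 of its Ctrl level and *Arpc5l* fell as well, while *Actr3* and *Arpc1b* rose. The other 5 genes did not pass the test. Called genes were thus 4 of 9, against 46% of the 12729 genes tested, with 2 higher (22.9% of all genes) and 2 lower (23.2%). The share of subunit genes called was close to that of all genes, and the median log2 fold change was 0.09 over the 9 genes and −0.01 over all genes. Values of this comparison are CPM scaled by TMM, tested by the quasi-likelihood method of edgeR and adjusted over all genes after Benjamini and Hochberg, with 4 mice per group and a threshold of 0.05.

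*Arpc4*, the targeted gene, was at 237, 216, 225 and 222 CPM in Ctrl 1 to 4 and at 153, 148, 143 and 138 CPM in KO 1 to 4. The groups did not overlap. The means were 225 ± 8.64 CPM and 145 ± 6.37 CPM (SD, n = 4), a change of −0.63 on the log2 scale (standard error 0.05, adjusted p = 5.44e-06). The sources used here do not give which exons were floxed, so counts at the 3′ end do not measure the deletion itself. *Ttll3*, whose exons overlap this end, moved the other way, from 16.8 to 21.2 CPM in Ctrl mice to 29.4 to 45.1 CPM in KO mice (log2 fold change 0.84, standard error 0.14, adjusted p = 0.000592). With the UMIs of *Ttll3* added to those of *Arpc4*, the log2 fold change of the sum was −0.44 (adjusted p = 4.25e-05).

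**Figure D1:**
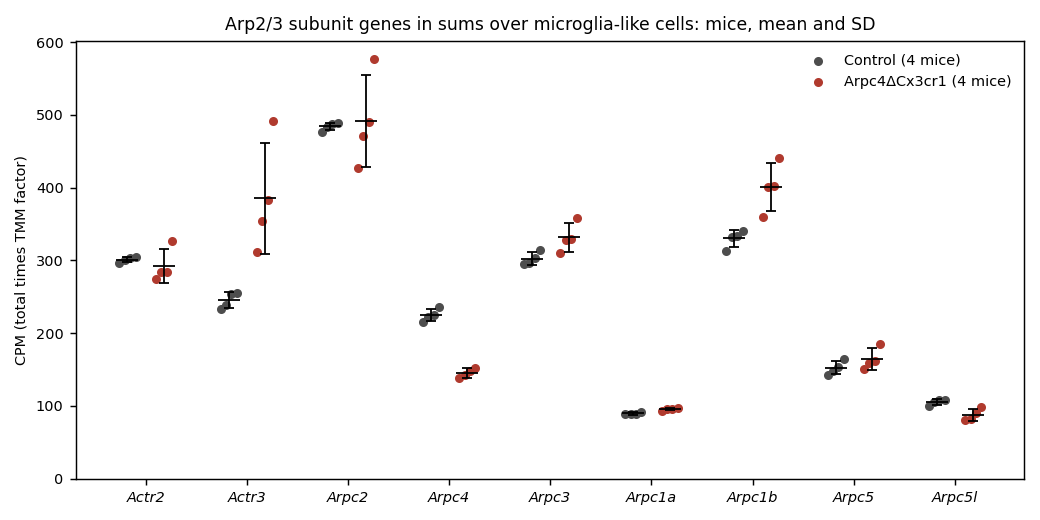
Levels of the 9 Arp2/3 subunit genes in microglia-like cells, in CPM scaled by TMM. Each point is 1 mouse, and lines give the mean and SD of the 4 Ctrl and the 4 KO mice. The groups are apart for *Arpc4*, at 216 to 237 CPM in Ctrl and 138 to 153 CPM in KO mice, and for *Actr3*, at 233 to 256 and 312 to 491 CPM.

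The other core gene, *Arpc2*, was the most abundant of the 9, at 488, 483, 489 and 477 CPM in Ctrl mice. In KO mice it was at 577, 471, 427 and 491 CPM, so that the KO mice lay on both sides of the Ctrl mice. The log2 fold change of 0.02, with a standard error of 0.08, did not pass the test (adjusted p = 0.852).

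*Actr3*, which encodes ARP3, was at 254, 233, 239 and 256 CPM in Ctrl mice and at 491, 354, 312 and 383 CPM in KO mice. Every KO mouse was above every Ctrl mouse, and KO1 was the highest. The change was 0.65 on the log2 scale (standard error 0.12, adjusted p = 0.00101), and 0.52 without KO1 (adjusted p = 2.45e-05). *Actr2*, which encodes its partner ARP2, was at 296 to 304 CPM in Ctrl mice and at 327, 285, 274 and 284 CPM in KO mice (log2 fold change −0.04, standard error 0.06, adjusted p = 0.590). In Ctrl mice *Actr2* was above *Actr3* in each of the 4, and in KO mice *Actr3* was above *Actr2* in each of the 4.

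*Arpc1b*, the ARPC1 form best known from blood and immune cells, was at 334, 332, 341 and 314 CPM in Ctrl mice and at 441, 360, 402 and 401 CPM in KO mice. The groups did not overlap (log2 fold change 0.28, standard error 0.07, adjusted p = 0.00488). With total UMIs in place of TMM, a scaling under which the median of all genes lay at −0.11, the log2 fold change of *Arpc1b* was 0.17 (adjusted p = 0.0330). *Arpc1a*, its alternative, was at 89.6, 88.8, 88.6 and 92.2 CPM in Ctrl mice and at 95.7, 93.2, 97.5 and 96.0 CPM in KO mice. Though the groups did not overlap, the log2 fold change of 0.09 (standard error 0.04) did not pass the test (adjusted p = 0.122), and it was −0.02 under total UMIs.

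*Arpc5l* was at 109, 99.5, 108 and 105 CPM in Ctrl mice and at 99.0, 82.4, 80.3 and 90.1 CPM in KO mice. All KO mice were below all Ctrl mice, with KO1 nearest to them (log2 fold change −0.26, standard error 0.07, adjusted p = 0.0114). Without KO1 it was −0.32 (adjusted p = 0.000471). *Arpc5*, its alternative, was at 143 to 164 CPM in Ctrl and 151 to 185 CPM in KO mice, with overlapping groups (log2 fold change 0.11, standard error 0.07, adjusted p = 0.244).

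*Arpc3*, which joins ARP3 to the rest of the complex, was at 314, 295, 297 and 304 CPM in Ctrl mice and at 359, 328, 311 and 330 CPM in KO mice. KO3 lay within the Ctrl range, and the change of 0.13 on the log2 scale (standard error 0.06) did not pass the test (adjusted p = 0.0727). Without KO3 the call was made, at 0.17 (adjusted p = 0.0340), and DESeq2 made it on all mice (adjusted p = 0.0415). Over the 9 genes, the mice did not overlap for 5, 3 of them higher and 2 lower in KO mice, against 44.2% of all genes tested. The clusters that held most microglia differed between the genotypes, as given at the end, and the 4 calls were also made without KO1, where *Arpc4* was at −0.65 and *Arpc1b* at 0.23, and without the 2 clusters led by markers of other cells. Left out, those clusters changed the log2 fold changes to −0.62 for *Arpc4*, 0.58 for *Actr3*, 0.31 for *Arpc1b* and −0.25 for *Arpc5l*.

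The balance within the complex does not depend on scaling between mice. UMIs at the 3′ end count molecules whatever their length, though the share of molecules captured may differ between genes. *Arpc4* made up 9.81 to 10.4% of the UMIs of the 9 genes in Ctrl microglia and 5.60 to 6.50% in KO microglia. The means were 10.1% ± 0.229 and 6.09% ± 0.465 (SD, n = 4), a difference of −3.96 percentage points (exact permutation test over mice, two-sided, p = 0.0286). This is the smallest p that 4 mice against 4 can give. Altogether 4 shares were tested, and the p adjusted over the 4 was 0.0286 for each.

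*Arpc1b* held 77.3 to 79.4% of the UMIs of *Arpc1a* and *Arpc1b* together in Ctrl microglia and 79.4 to 82.2% in KO microglia. The highest Ctrl and the lowest KO mouse were almost level, and the difference of the means, 78.6% ± 0.908 and 80.7% ± 1.13, was 2.08 percentage points (exact permutation test, two-sided, p = 0.0286). *Arpc5l* held 39.2 to 43.1% of the UMIs of *Arpc5* and *Arpc5l* in Ctrl and 34.1 to 35.8% in KO microglia. Here the means, 40.9% ± 1.75 and 34.9% ± 0.681, differed by −6.05 percentage points (exact permutation test, two-sided, p = 0.0286). KO microglia thus held relatively more *Arpc1b* within the first pair and relatively less *Arpc5l* within the second. Without KO1 the differences were 1.59 and −6.04 percentage points, and −3.79 for the *Arpc4* share.

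**Figure D2:**
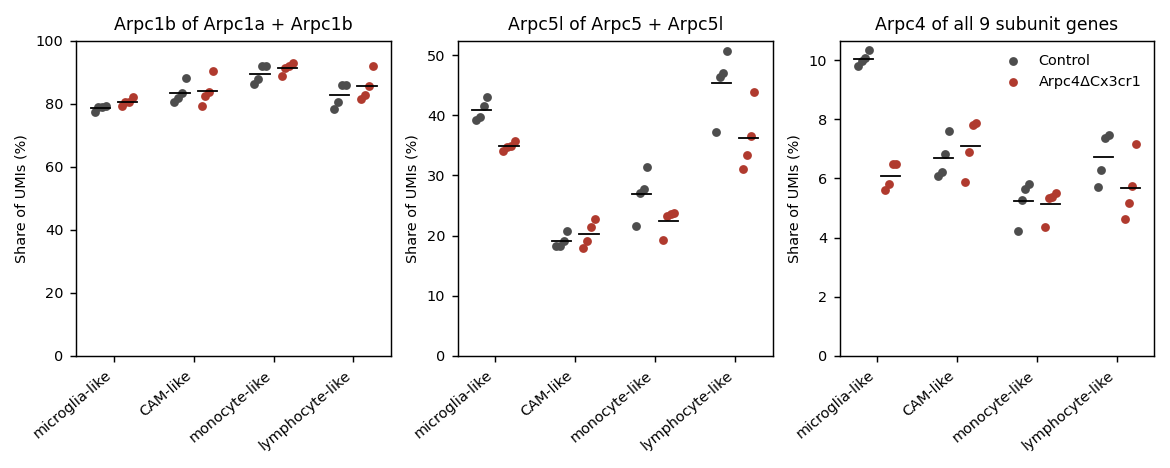
Share of *Arpc1b* in the UMIs of *Arpc1a* and *Arpc1b*, and of *Arpc5l* in those of *Arpc5* and *Arpc5l*, in percent, by cell class and genotype. Each point is 1 mouse and each line the mean of a group. In microglia-like cells the *Arpc5l* share lies at 39.2 to 43.1% in Ctrl and 34.1 to 35.8% in KO mice, and the *Arpc1b* share at 77.3 to 79.4% and 79.4 to 82.2%.

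Cells were also compared at equal depth, each thinned to 2000 UMIs. An *Arpc4* UMI was then found in 36.1 to 38.6% of Ctrl and 23.4 to 25.5% of KO microglia. The means of 37.1% ± 1.08 and 24.5% ± 1.16 differed by −12.6 percentage points (SD, n = 4, exact permutation test, two-sided, p = 0.0286). Without thinning, the shares were 57.8 to 61.6% and 43.6 to 48.1%. In lymphocyte-like cells, thinned in the same way, they were 24.0 to 36.4% in Ctrl and 20.7 to 27.5% in KO mice, and the groups overlapped. *Arpc4* is expressed in all these cells, and the pool offers no cell type that lacks it as a background. The empty droplets of the pool held *Arpc4* at 229 CPM and *Actr3* at 289 CPM, and RNA free in the droplets was counted in each cell. Subtracting 25% of each sum with that profile gave log2 fold changes of −0.94 for *Arpc4*, 0.86 for *Actr3*, 0.43 for *Arpc1b* and −0.44 for *Arpc5l*, all past the threshold. The same profile and share were taken from both genotypes, which by itself widens a fold change that is present. The share of free RNA was not estimated, and its part in these differences was not tested.

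The second set of comparisons asked whether other cells of the same mice differed. Lymphocyte-like cells joined a cluster of T cells and a cluster of B cells. The former also held natural killer (NK) cell transcripts: it was led by *Gzma* and *Nkg7*, which cytotoxic T cells use too, and all 6 NK markers were present there, at a summed level of 1008 to 1869 CPM in Ctrl and 1513 to 2878 CPM in KO mice, beside 2545 to 2972 and 2329 to 4140 CPM of the 7 T cell markers. The *Cx3cr1* promoter is silent in most T and B cells, but NK cells and cytotoxic T cells can use it, so lymphocyte-like cells are not a set without Cre. Of the 9 genes, 0 passed edgeR's test there, where 2.97% of 4713 genes did. At an unadjusted p under 0.05 there was 1, *Arpc5l*, and DESeq2 called 0. *Arpc4* was at 211, 220, 187 and 223 CPM in Ctrl and at 173, 226, 140 and 151 CPM in KO mice, which overlap through KO2 (log2 fold change −0.31, standard error 0.19, adjusted p = 0.528). *Actr3*, at 474 to 502 CPM in Ctrl and 467 to 494 CPM in KO mice, lay almost level between the genotypes (log2 fold change −0.02, standard error 0.13, adjusted p = 0.977). *Arpc5l* was at 187 to 257 CPM and 123 to 192 CPM, overlapping groups (log2 fold change −0.44, standard error 0.21, adjusted p = 0.355). Each mouse gave 30 to 68 lymphocyte-like cells, and 30 to 57 *Arpc4* UMIs in Ctrl and 33 to 45 in KO mice.

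CAM-like cells are brain macrophages at vessels and meninges, which Cx3cr1-Cre also targets. Ctrl mice gave 48 to 112 such cells and KO mice 22 to 46. At a clustering resolution of 0.4, the CAM-like cluster held 1768 cells, 81.7% of them from KO mice, instead of 414 and 30.4%. That wider cluster had hemoglobin genes, *Pf4*, *Mrc1* and *Ms4a7* among its leading genes, and the CAM comparison was not repeated on it. Of the 9 genes, 0 passed edgeR's test, where 0.987% of 3446 genes did, and 0 had an unadjusted p under 0.05 or passed DESeq2. *Arpc4* was at 259, 188, 239 and 204 CPM in Ctrl and at 306, 227, 272 and 260 CPM in KO mice, with overlapping groups (log2 fold change 0.27, standard error 0.21, adjusted p = 0.692). *Arpc4* was counted there with 43 to 90 UMIs per Ctrl mouse and 19 to 37 per KO mouse. Among monocyte-like cells the count was also 0 of 9, against 7.59% of 3071 genes, with 0 at an unadjusted p under 0.05. Ctrl mice gave 20 to 36 monocyte-like cells and KO mice 14 to 114. *Arpc4* lay at 233 to 338 CPM in Ctrl and 253 to 334 CPM in KO monocytes (log2 fold change −0.04, standard error 0.19, adjusted p = 0.968).

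Microglial RNA was present in these classes. The summed level of the 12 microglia markers was 28.3 to 35.4% of that of the mouse's own microglia in Ctrl lymphocytes and 27.7 to 38.9% in KO lymphocytes. It was 29.6 to 39.3% in Ctrl and 36.6 to 51.6% in KO CAMs, cells that use some of these genes themselves, and 5.27 to 11.8% and 8.33 to 36.1% in monocytes. Its part in the levels of the subunit genes was not tested.

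Whether the genotype effect differed between classes was tested by the interaction. For *Arpc4*, the effect in microglia minus that in CAMs was −0.78 on the log2 scale (standard error 0.17, adjusted p = 0.00831), in a fit where the median of all genes was 0.18. *Arpc4* was the 1 gene of 9 called there, against 5.32% of 11110 genes. Leaving out each mouse in turn gave −0.89 to −0.70, with an adjusted p of at most 0.0348. The wider CAM-like cluster found at resolution 0.4 was not used, so this call rests on the class boundary drawn at 0.8. Against lymphocytes, the difference for *Arpc4* was −0.32 (standard error 0.16, adjusted p = 0.437) and did not pass the test. *Actr3* was the 1 gene of 9 called in that fit, at 0.66 (standard error 0.16, adjusted p = 0.0257), against 2.85% of 11543 genes. This call was lost without Ctrl 2 (adjusted p = 0.0656), Ctrl 3 (0.0738), Ctrl 4 (0.0694) or KO 4 (0.0961), and without the 2 microglia clusters led by markers of other cells (0.0868), at differences of 0.59 to 0.69.

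**Figure D3:**
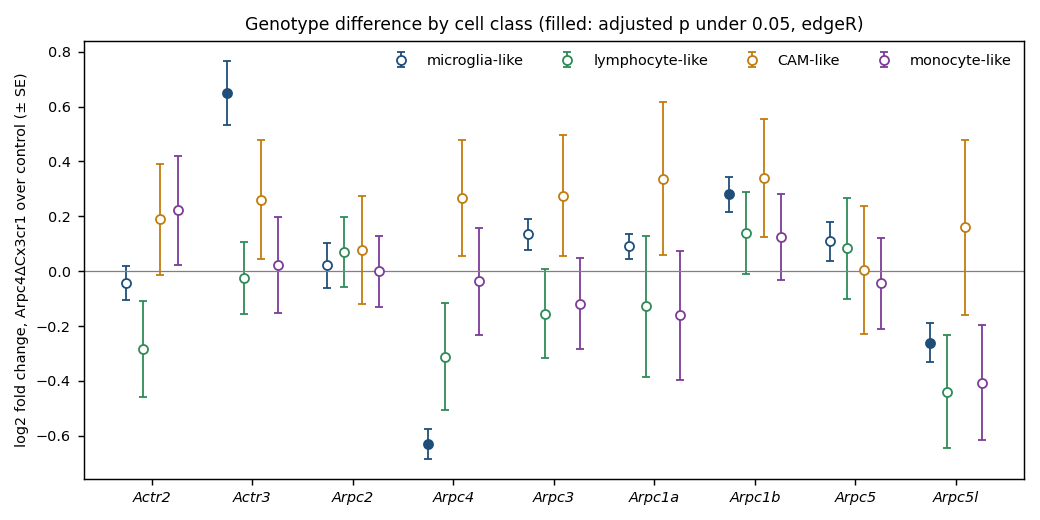
Log2 fold change between KO and Ctrl mice for each of the 9 genes in microglia-, lymphocyte-, CAM- and monocyte-like cells, with bars of 1 standard error. Filled points passed edgeR's quasi-likelihood test. *Arpc4* lies at −0.63 in microglia, −0.31 in lymphocytes, 0.27 in CAMs and −0.04 in monocytes, and *Actr3* at 0.65, −0.02, 0.26 and 0.02.

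How the subunits differed between cell types was taken from the 4 Ctrl mice, with the 9 genes left out of the genes that formed the clusters. Summed over the 9 genes, monocytes had 4459 to 5189 CPM (scaled by the total), T cells 2688 to 2957 CPM, CAMs 2663 to 3203 CPM and microglia 2288 to 2336 CPM. Monocytes and microglia did not overlap with any of the others, whereas T cells and CAMs overlapped. B cells of 2 mice had 3571 and 3629 CPM, and granulocytes of 1 mouse 3981 CPM. Across the 21 sums of 7 classes, the 5 genes whose log2 CPM followed the mean of the 9 most closely were *Ndufa6* (Pearson r = 0.933), *Smdt1* (0.908), *Scand1* (0.904), *Napsa* (0.897) and *Lsp1* (0.895), among 3498 genes. Sums of 1 mouse share their library, so this order is a description.

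Monocytes, with the dendritic cell marker given above, were higher than microglia for 8 of the 9 genes, against 27.1% of 8072 genes called higher (54.5% in either direction). The largest differences were those of *Arpc1b*, at 2.06 on the log2 scale (standard error 0.10, adjusted p = 2.04e-19), and *Arpc5*, at 2.03 (0.11, 1.30e-18). *Arpc4* was among the smallest called, at 0.62 (standard error 0.12, adjusted p = 3.85e-05), and *Actr2*, at 0.13 (0.12, 0.402), was not called. These values are relative to TMM. With total UMIs, which put the median of all genes at −0.64, *Arpc4* was at 0.07 (adjusted p = 0.612), *Arpc1a* at 0.32 (adjusted p = 0.0828) and *Actr2* at −0.42 (adjusted p = 0.00187), while the other 6 were still called higher.

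CAMs were higher than microglia for *Actr3*, *Arpc5*, *Arpc1b*, *Arpc3* and *Arpc2* and lower for *Arpc5l*, 6 of 9 genes against 33% of all called in either direction. *Actr3* differed by 1.01 (standard error 0.10, adjusted p = 8.73e-11), and *Arpc5l* by −0.62 (standard error 0.18, adjusted p = 0.00692), the latter a call lost without Ctrl 3 (−0.50, adjusted p = 0.0985). T cells, with the NK markers given above, were also higher for 6 of 9 genes, against 20.9% of all genes called higher (42% in either direction). *Actr3* was at 0.99 (standard error 0.11, adjusted p = 3.23e-09), and *Arpc5l*, at 0.60 (standard error 0.17, adjusted p = 0.00340), again lost its call without Ctrl 3 (0.48, adjusted p = 0.0796). *Arpc4* did not pass in CAMs (−0.05, adjusted p = 0.785) or T cells (−0.20, adjusted p = 0.241) under TMM. Under total UMIs, it was called lower in both, at −0.29 and −0.34, as was *Actr2*, at −0.45 and −0.31, where the medians of all genes lay at −0.27 and −0.20.

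**Figure D4:**
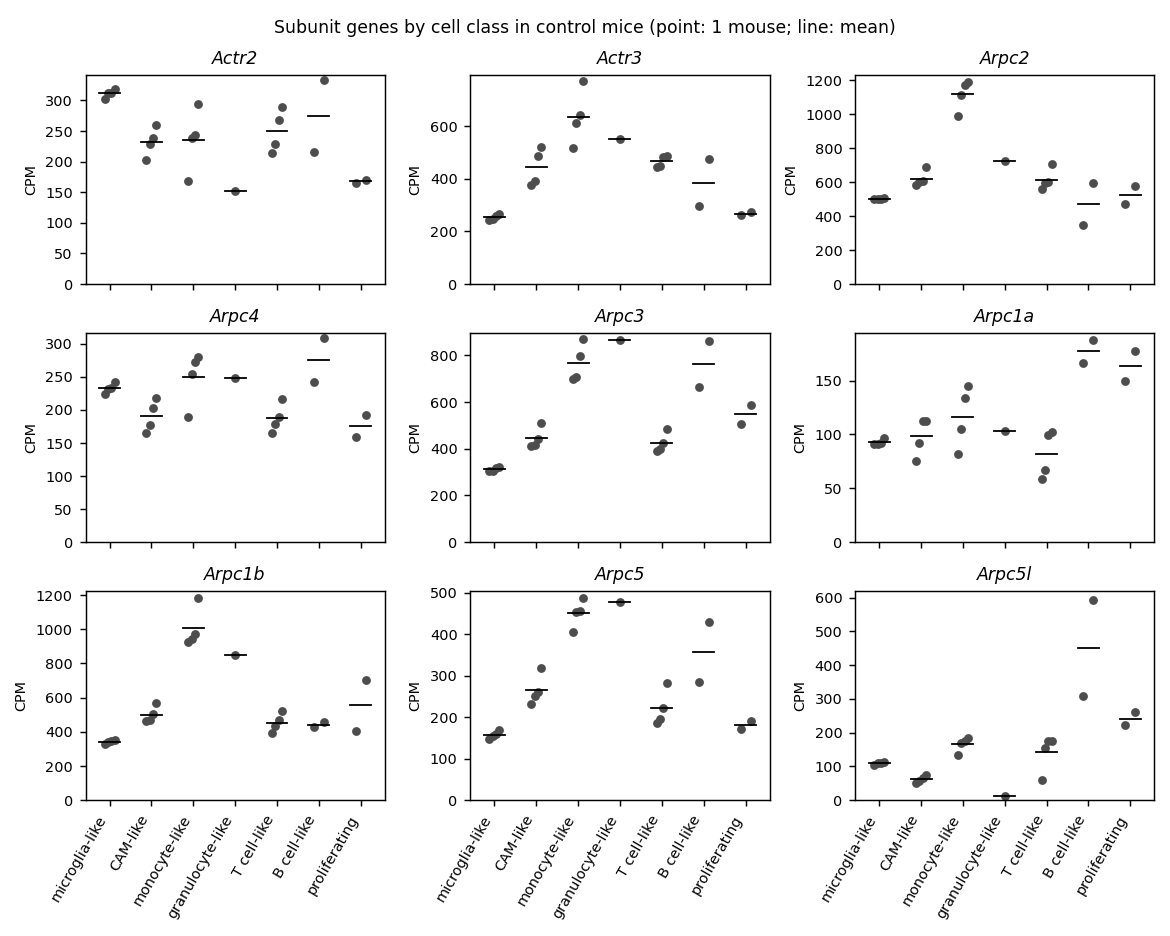
Levels of the 9 genes by cell class of the Ctrl mice, in CPM scaled by the total. Each point is 1 mouse with at least 10 cells of the class, and each line is a mean. Means are of 4 mice in microglia, T cells, CAMs and monocytes, of 2 in B cells and proliferating cells, and granulocytes rest on 1 mouse. *Arpc1b* lies at 329 to 352 CPM in microglia, 392 to 521 CPM in T cells, 465 to 567 CPM in CAMs and 923 to 1183 CPM in monocytes.

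Shares within the pairs, which need no scaling, also differed between Ctrl classes. *Arpc5l* held 18.2 to 20.7% of its pair in CAMs, 21.6 to 31.3% in monocytes and 39.2 to 43.1% in microglia, without overlap between the 3. T cells were at 17.5% in Ctrl 1, from 40 UMIs of the pair, and at 44.3 to 47.4% in Ctrl 2 to 4. Their range spanned the 3 others through Ctrl 1 alone, and Ctrl 2 to 4 lay above all microglia. B cells of 2 mice had 52.0 and 57.9%, and granulocytes of 1 mouse 2.47%, where *Arpc5l* was counted at 12.1 CPM beside 479 CPM of *Arpc5*. The *Arpc1b* share was 77.3 to 79.4% in microglia, 80.6 to 88.2% in CAMs, 79.8 to 88.0% in T cells and 86.4 to 92.0% in monocytes, so that microglia lay below these 3, while B cells of 2 mice had 70.8 and 72.0%. *Arpc4* was 9.81 to 10.4% of the 9 genes in microglia against 4.23 to 7.59% in CAMs, T cells and monocytes, and in KO microglia it came down to 5.60 to 6.50%, within the range of those cells. Shares between cell types were not tested.

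In KO mice the same shares outside microglia overlapped with those of Ctrl mice in CAMs and lymphocytes. The *Arpc4* share was 6.08 to 7.59% in Ctrl and 5.87 to 7.86% in KO CAMs, and 5.72 to 7.48% and 4.63 to 7.17% in lymphocytes. The *Arpc5l* share was 37.2 to 50.8% in Ctrl and 31.1 to 44.0% in KO lymphocytes.

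Factors that act on the complex were counted from 4 lists in the same microglia fit. Of 23 activators of the WASP, WAVE and WASH groups, 20 were tested, 3 rose and 5 fell, against 22.9% of all genes higher and 23.2% lower. *Wipf1*, which encodes a partner of WASP, rose from 217 to 244 CPM in Ctrl mice to 361 to 392 CPM in KO mice (log2 fold change 0.70, adjusted p = 2.69e-06), and the WASH subunit *Washc2* rose as well (0.31, adjusted p = 0.000555). *Wasf2*, which encodes the WAVE protein of most blood cells, fell from 573 ± 32.2 to 322 ± 26.9 CPM (−0.83, adjusted p = 4.36e-06). The WAVE partners *Cyfip1* (−0.81, adjusted p = 2.91e-05) and *Abi3* (−0.55, adjusted p = 2.02e-05) and *Was*, which encodes WASP (−0.39, adjusted p = 8.32e-05), fell too. *Wasf1*, *Wasf3* and *Cyfip2* were too low to be tested.

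Of 10 inhibitors and debranching factors, 9 were tested, 3 rose and 2 fell, against the same 22.9% and 23.2% of all genes. The coronins, some of which can displace the complex from branches, moved both ways. *Coro1c* rose from 32.6 ± 2.81 to 60.3 ± 5.75 CPM (log2 fold change 0.89, adjusted p = 1.23e-05). *Coro7* rose by 0.56 (adjusted p = 0.00116) and *Coro2a* by 0.42 (adjusted p = 0.0281), while *Coro1a* fell from 271 ± 9.57 to 188 ± 22.9 CPM (−0.53, adjusted p = 0.000311). *Gmfb*, which encodes a debranching factor, was lower at −0.43 (adjusted p = 0.000569), and its relative *Gmfg* was at −0.11 (adjusted p = 0.112). The call of *Coro2a* was lost without Ctrl 1 (adjusted p = 0.0606), Ctrl 2 (0.0688) or Ctrl 4 (0.0804). With total UMIs, under which the median of all genes lay at −0.11, *Coro2a* was not called either (adjusted p = 0.0781) and *Gmfg* was called lower (−0.22, adjusted p = 0.0104). *Arpin* was too low to be tested. The branch stabilisers *Dbnl* (−0.44, adjusted p = 0.000898) and *Hcls1* (−0.17, adjusted p = 0.0264) both fell, 2 of 2 tested against 23.2% of all genes lower, and the third, *Cttn*, was not tested. The call of *Hcls1* was lost without Ctrl 1 (adjusted p = 0.0545), Ctrl 4 (0.0778) or KO 3 (0.0663).

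Of 6 small GTPases upstream of the complex, 4 fell, against 23.2% of all genes lower. *Rac1*, which switches on WAVE, went from 289 ± 8.39 to 229 ± 8.35 CPM (−0.34, adjusted p = 0.000254), and *Cdc42*, which switches on WASP, from 681 ± 12.7 to 574 ± 41.7 CPM (−0.25, adjusted p = 0.00550). *Rhog* was at −0.30 (adjusted p = 0.000703) and *Arf1* at −0.28 (adjusted p = 0.00253), while *Rac2* (−0.20, adjusted p = 0.0871) and *Arf6* (−0.32, adjusted p = 0.111) did not pass. Without KO1, *Rac2* (−0.30, adjusted p = 0.000247) and *Arf6* (−0.50, adjusted p = 0.000229) were called lower as well. Both were also called with total UMIs, a scaling under which the median of all genes lay lower. The shares of all genes called in those fits are not given here, so no count from them is set beside the 23.2%. Over the 4 lists, 19 of 37 genes tested were called, near the 46% of all genes. Medians were −0.01 for activators, 0.04 for inhibitors, −0.30 for stabilisers and −0.29 for GTPases, beside −0.01 for all genes.

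Clustered again without the 9 genes, microglia-like cells fell into 12 clusters, of which 1, 2, 3 and 7 held 96.7 to 98.3% Ctrl cells and the other 8 held 84.9 to 99.8% KO cells. *Arpc4* was at a median of 205 to 292 CPM (by total) over Ctrl mice in clusters 1, 2, 3 and 7, and of 129 to 197 CPM over KO mice in the other 8. Among those 8, several held enough Ctrl cells to set the genotypes side by side, each on few Ctrl UMIs. In cluster 10, 2 Ctrl mice were at 198 and 249 CPM and the 4 KO mice at 110 to 141 CPM. In cluster 6, 2 Ctrl mice were at 158 and 261 CPM and the KO mice at 99.7 to 137 CPM. The 1 Ctrl mouse in cluster 9 was at 427 CPM, from 19 UMIs, and the KO mice were at 152 to 205 CPM. In these 3 clusters Ctrl mice lay above all KO mice. The genotypes overlapped in cluster 8, led by *Ccl4*, where the Ctrl mice were at 127 to 317 CPM and the KO mice at 120 to 156 CPM, and in cluster 11, where 3 Ctrl mice were at 111 to 299 CPM and 3 KO mice at 127 to 154 CPM. They also overlapped in cluster 0, whose 94 Ctrl cells were at 119 to 176 CPM and whose 2928 KO cells were at 122 to 136 CPM. The median UMI count per cell in cluster 0 was 8943 to 10215 in the Ctrl mice and 10196 in KO1, which gave 36 cells, against 4779 to 5273 in KO 2 to 4. No doublet caller was run, and the part of doublets in these levels was not tested.

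*Actr3* ranged more widely between clusters. In KO mice it was at 544 to 583 CPM in cluster 6, led by hemoglobin genes and *Ms4a7*, and at 463 to 709 CPM in cluster 10, led by *Cxcl10* and interferon-induced genes. Ctrl cells of these clusters were few and reached similar levels, at 427 and 835 CPM in cluster 6 and 234 and 513 CPM in cluster 10. KO1 gave 188 cells of cluster 6, and KO2 to KO4, with *Hbb-bs* at most 2.40 CPM over all microglia, gave 420, 248 and 428. In cluster 8 the Ctrl mice were at 306 to 620 CPM and the KO mice at 348 to 455 CPM, with overlap. In clusters 0, 5 and 9 its median over KO mice was 320, 279 and 270 CPM. Medians over Ctrl mice in clusters 1, 2, 3 and 7 were 216 to 256 CPM. Within cluster 0 the genotypes overlapped, with the 4 Ctrl mice at 253 to 335 CPM and the KO mice at 270 to 368 CPM. They also overlapped in cluster 11, with 3 Ctrl mice at 265 to 334 CPM and 3 KO mice at 290 to 436 CPM. The 1 Ctrl mouse in cluster 9 was at 135 CPM, from 6 UMIs, below the KO mice at 202 to 344 CPM. Cluster 4, with 1652 KO cells, most of them from KO1, had 463 and 483 CPM in the 2 mice with enough cells. The clusters were formed by expression in these same cells, so their levels are a description and were not tested.

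**Figure D5:**
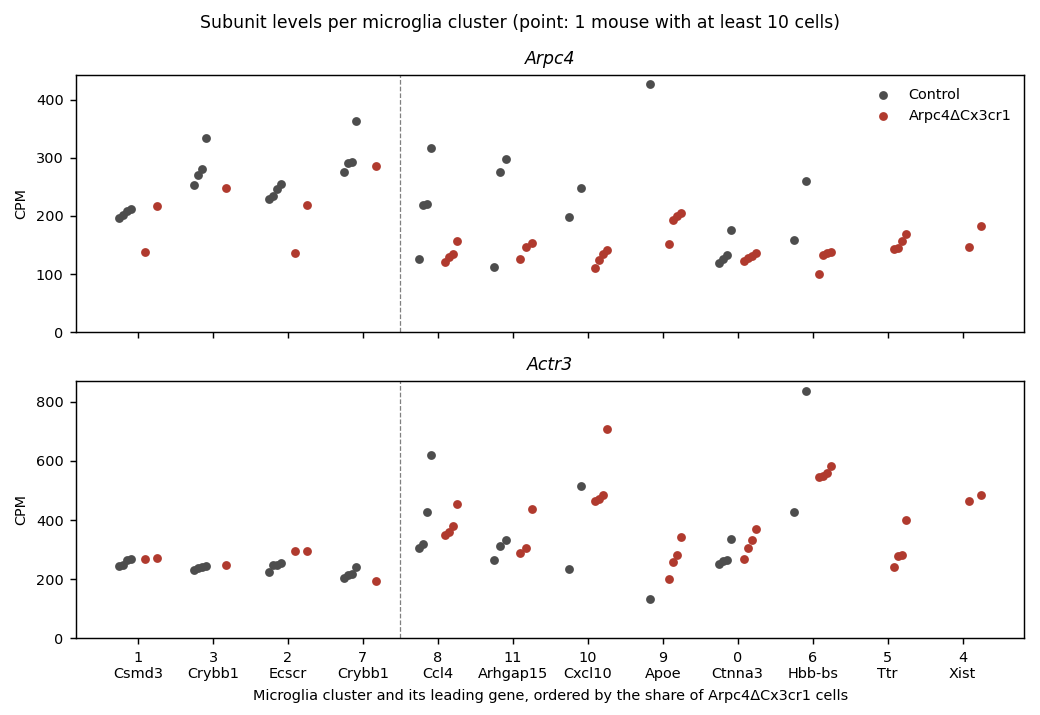
*Arpc4* and *Actr3* in the 12 microglia-like clusters, in CPM scaled by the total. Each point is 1 mouse with at least 10 cells in the cluster, and a dashed line separates the clusters held mostly by Ctrl cells from those held mostly by KO cells. *Arpc4* lies at 197 to 212 CPM in Ctrl cells of cluster 1 and at 122 to 136 CPM in KO cells of cluster 0, and *Actr3* reaches 544 to 583 CPM in KO cells of cluster 6.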

How the data were processed

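Raw counts of UMIs per gene and cell, deposited by the authors as 1 table per mouse and 1 of the whole pool, were used as they stand. Alignment to mm10 was done by the authors in Cell Ranger (6.1.2 per the submitters' processing notes, 7.1.0 per the file headers), with no normalization or ambient correction in these counts. Cells under 200 genes or over 20% mitochondrial UMIs were left out. With Seurat 5.3.0, 10000 variable genes without subunit genes, 20 principal components, 20 neighbours and resolution 0.8 gave clusters, which were named from markers, with limits set after the clusters were seen. No doublet caller was run. UMIs were summed per class and mouse (at least 10 cells) and tested with edgeR 4.0.16 in R 4.3.3 (filterByExpr, TMM, quasi-likelihood, Benjamini-Hochberg), with DESeq2 1.42.0 as an alternative. Shares were compared by exact permutation over 70 regroupings with scipy 1.17.1. The edgeR genotype test was tried on simulated counts for microglia- and lymphocyte-like sums, and the permutation test on made-up values with known answers. DESeq2 and the interaction and cell type fits were not tried in this way. Genes named were the subunits, markers, up to 6 of each pathway list by p and any member not tested, and the 5 most alike. *Ttll3*, *Pdap1*, *Wdr38*, *Xist* and *Hbb-bs* were named after values or positions were seen. Members and lists were chosen with earlier results of these data known. Promoter windows and motifs came from RefSeq, positions from GENCODE vM21. Mouse numbers paired nothing (correlations of −0.08 to 0.03). Each group had 4 mice, whose total UMIs are given in the report, and p-values measure the spread between them in 1 library.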

Additional observations from a re-analysis of the deposited data

Results flagged for a closer look

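Among 98 groups of 4 mice, 5 held a mouse far from the other 3, where chance gives about 1 in 20. *Arpc2* in CAM-like cells was at 817 CPM (TMM) in Ctrl 1, with the next Ctrl mouse at 693 CPM. *Actr2* in lymphocyte-like cells was at 254 CPM in KO 1 and at most 215 CPM in the other KO mice. *Arpc1b* in monocyte-like cells was at 1443 CPM in Ctrl 4, with the next at 1177 CPM. The *Arpc5l* share of its pair in monocyte-like cells was 19.2% in KO 1 against 23.3% in the next KO mouse, and the *Arpc4* share of the 9 genes was 4.36% in KO 3 against 5.36%.

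Genotype effects differed between classes for 2 genes by edgeR's quasi-likelihood test of the interaction. *Actr3* differed by 0.66 on the log2 scale between microglia- and lymphocyte-like cells (adjusted p = 0.0257). That fit called 2.85% of 11543 genes. The *Actr3* call was made in only 7 of 13 alternatives, where its adjusted p reached 0.166. *Arpc4* differed by −0.78 between microglia- and CAM-like cells (adjusted p = 0.00831), in a fit that called 5.32% of 11110 genes. The *Arpc4* call was not tried on the wider CAM-like cluster found at a clustering resolution of 0.4.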

How the results depend on the processing

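In microglia-like cells, *Arpc4*, *Actr3*, *Arpc1b* and *Arpc5l* kept their direction and their call under 19 alternatives each, at −0.94 to −0.44, 0.52 to 0.86, 0.17 to 0.43 and −0.44 to −0.22 on the log2 scale. Those with total UMIs, with *Ttll3* added, without 2 clusters and those that left out mice of the CAM interaction and of the control classes were chosen after seeing the data. The alternatives that subtracted free droplet RNA took the same profile from both genotypes, which by itself widens a fold change. *Arpc3* was called by DESeq2 and without KO 3. DESeq2 also called *Arpc4*, *Actr3*, *Arpc1b* and *Arpc5l*. The share of all genes called by DESeq2 is not given here, so its calls are not read against other genes. Leaving out 1 mouse moved the difference in the *Arpc1b* share between 1.59 and 2.50 percentage points, that in the *Arpc5l* share between −6.61 and −5.32, that in the *Arpc4* share between −4.09 and −3.79 and that in cells with an *Arpc4* UMI between −13.0 and −12.1, each with an exact p of 0.0571, the smallest that 3 mice against 4 can give. The count of genes called by edgeR's interaction test between microglia and lymphocytes was 1. It went to 0 at a clustering resolution of 0.4 (*Actr3* 0.55, adjusted p = 0.166) and without the 2 clusters led by markers of other cells. When 1 mouse was left out, it lay between 0 and 1. At resolution 0.4 no cluster was named B cells, so lymphocyte-like cells were the T cell-like cluster alone. *Actr2* in Ctrl monocytes against microglia, at 0.13, reversed to −0.42 with total UMIs. A replicate block on the mouse numbers, which pair nothing between genotypes, gave 4 calls in microglia, with *Arpc4* at −0.63, and 0 in lymphocytes and in CAMs. With the mouse itself as the block, the interactions gave 1 call each and the control classes 20, so no count changed. Depth limits the smaller classes, where *Arpc4* rests on 19 to 90 UMIs per mouse in CAMs. The CAM comparisons were not run at a clustering resolution of 0.4, where the CAM-like cluster was wider.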
